A study of Mus musculus with 24 samples.

Results

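The response of L4 and L5 DRGs of wildtype (WT) mice to a sciatic nerve lesion was measured at day 2 post-lesion, across all genes of the array. The samples were chosen by their titles as 4 WT day 2 and 4 WT control samples, which are 8 of the 24 samples of the series. All animals were adult male mice, and the strain is given as C57BL/6J for every sample. The nerve in the left hind leg was cut and its ends were sutured together again. Day 2 samples are DRGs of the lesioned side, and control samples are DRGs of the side without injury, so the controls come from operated animals. The time at which control tissue was taken, and whether a control came from the same animal as a lesioned sample, are not stated. The other groups used here are WT day 5, *Nfil3* KO control and *Nfil3* KO day 2, with 4 samples each. *Nfil3* KO mice lack the gene in all cells, since a floxed allele was recombined by a Cre that a human CMV promoter drives. The design calls the 4 samples of a group biological replicates, and the tests below measure the spread between them.

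Each DRG holds the cell bodies of sensory neurons, wrapped by satellite glia and surrounded by Schwann cells, macrophages and vessels. When their axon in the nerve is cut, these neurons switch on transcription factors and growth-associated proteins that adult neurons otherwise express little, and they turn down many of the channels, receptors and peptides that serve sensation. The ganglion also receives and activates macrophages and glia at some distance from the lesion. *Nfil3*, the gene deleted in the KO, encodes a bZIP transcription repressor.

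Levels are log2 intensities, the log2 of the brightness of an array spot after background correction and normalization, and a difference of 1 is a 2-fold change. Levels of different genes cannot be set against each other, because each probe has its own brightness. The probe with the highest mean over all samples stood for a gene. A probe was called higher or lower where limma's Benjamini-Hochberg adjusted p over all 41174 probes was under 0.05. The verbs rose and fell are used below for called genes only. A probe counts as detected in a sample where the scanner software flagged its spot as well above background, which held for 54.5% to 70.2% of the spots of these 8 samples, with the lowest share in control 4. The first principal component of the 8 samples, with 21.6% of the variance, separated the groups, and the next one, with 17.9%, followed the dye. The labels name the tissue as neurons. All 10 neuron markers were detected in all 8 samples, and so were all 10 Schwann cell markers and all 14 macrophage markers, so the samples are whole ganglia. Skeletal muscle markers had a mean level of 7.86 in control 1 against 4.62 to 5.49 in the other 7 samples. Of the 7 muscle markers limma called 0, and 0 had an unadjusted p under 0.05.

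At day 2, 1643 of 27398 genes (6.00%) had a probe called higher and 1792 (6.54%) had a probe called lower. Of these, 8 genes (0.0292%) had probes called in each direction. A called change of 2-fold or more was found in 757 genes (2.76%), of which 510 (1.86%) rose and 247 (0.902%) fell. By the brightest probe, 1432 genes (5.23%) rose and 1581 (5.77%) fell, and these are the shares to hold beside every list below. The lists were chosen with earlier results of these data known, so a high share in a list is a description and no test. In 2003 genes (7.31%) all 4 day 2 samples lay above all 4 controls, and in 2515 (9.18%) all 4 lay below them. The 13699 brightest genes, to which most members of those lists belong, had 8.83% called higher and 10.2% called lower. Rises were larger than falls. The median size of a called rise was 0.73 on the log2 scale and that of a called fall 0.60, while 48 genes rose and 0 fell by 8-fold or more. Among genes detected in all 8 samples, 20 of 1158 rose and 0 of 1458 fell by that much. The number of genes called lower was less stable than the number called higher. It was 1114 without day 2 replicate 2, 1148 without control 3 and 1167 without control 2, whereas genes called higher stayed between 1285 and 1528 with any 1 of the 8 samples left out. Across all genes, 3427 had a called probe in the fit of all samples and 1495 in a fit of the 8 WT samples alone. The 195 called genes examined one by one are no random sample of the calls. They include the largest changes and genes chosen after their values were seen. Of these 195, 35 lost their call with at least 1 sample left out and 47 in the fit of the 8 WT samples. The share lost among them does not hold for all calls.

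**Figure D1:**
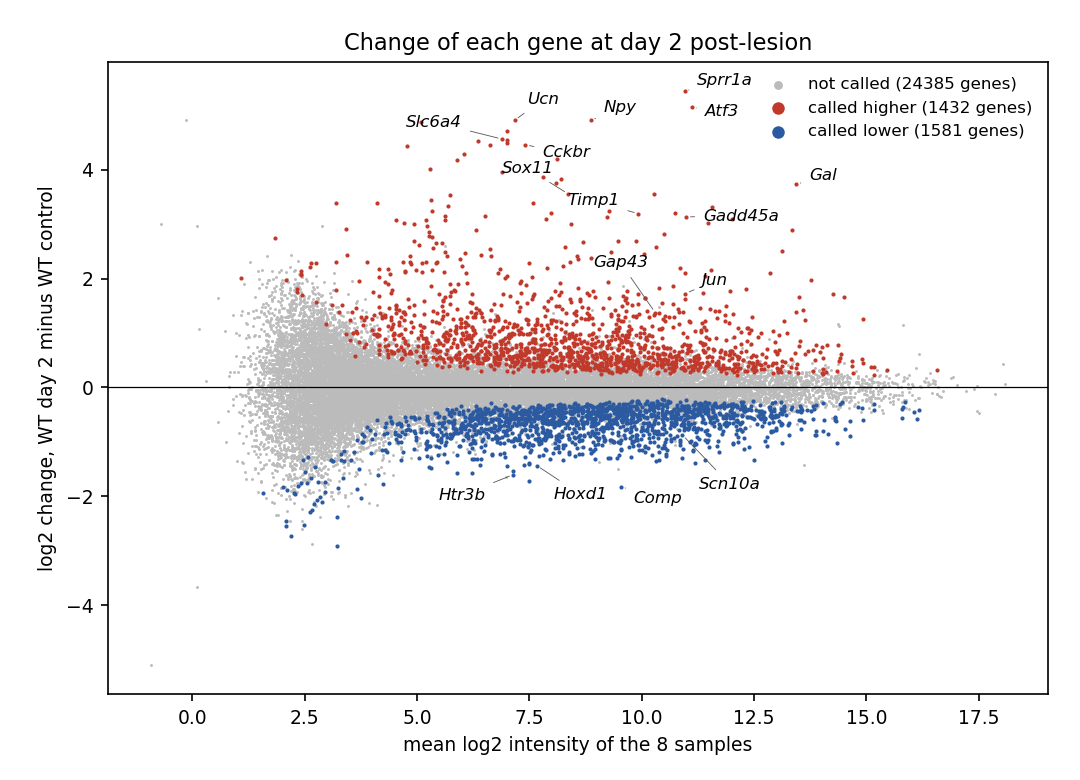
Change of each gene at day 2 post-lesion in WT DRGs. The x axis is the mean log2 intensity of the 8 samples, the y axis is the log2 change (WT day 2 minus WT control), and each point is the brightest probe of a gene. Red points are the 1432 genes called higher, blue points the 1581 called lower and grey points those not called. The rises reach 5.44 (Sprr1a), and the called genes that fell by over 2 are dim probes.

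Several transcription factors of the injury response rose, and *Atf3* and *Sox11* rose most. *Atf3*, a stress-induced bZIP factor that is hardly expressed in intact sensory neurons, had levels of 7.69, 9.28, 7.25 and 9.98 in controls 1 to 4 and of 13.50, 13.83, 13.68 and 13.78 in day 2 replicates 1 to 4. Controls 2 and 4 lay above controls 1 and 3, and every lesioned sample lay above all of them. The change was 5.14 ± 0.50 (SE; adjusted p = 6.24e-07). *Sox11*, a growth-related factor of immature neurons, went from between 6.46 and 6.71 in the controls to between 9.88 and 10.44 at day 2, a rise of 3.56 ± 0.17 (adjusted p = 2.61e-11). Both groups of *Sox11* were tight, and all 6 of its probes were called. *Jun*, a subunit of the AP-1 complex, had control levels of 10.09, 10.24, 10.14 and 9.98 and day 2 levels of 11.92, 12.01, 11.66 and 11.76, a rise of 1.73 ± 0.12 (adjusted p = 8.91e-09).

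*Nfil3* itself had levels of 8.44, 8.64, 8.51 and 9.01 in the controls and 10.45, 10.76, 10.34 and 10.54 at day 2. All 4 lesioned samples lay above all 4 controls. The difference of 1.87 ± 0.81 did not pass the test across all 24 samples (adjusted p = 0.172), but it did in the fit of the 8 WT samples alone (adjusted p = 0.00106), in which the calls of *Sprr1a*, *Npy* and others were lost, and a dimmer *Nfil3* probe passed in the fit of all samples with a rise of 1.85 (adjusted p = 0.0385). In *Nfil3* KO mice that dimmer probe differed by -0.08 between day 2 and control (adjusted p = 0.957).

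Of 35 listed injury-induced transcription factors on the array, 16 rose, 1 fell and 18 were not called. Their median change was 0.34, against -0.02 over all genes. After *Atf3* and *Sox11*, large rises were those of *Csrnp1* (1.93), *Crem* (1.48), *Fosl2* (1.22), *Cebpd* (1.19), *Klf6* (1.18) and *Smad1* (1.10). *Fos* (0.81) and *Junb* (0.77), classic immediate early genes, also rose. *Fosl1*, an AP-1 subunit, was detected in no control and in all 4 lesioned samples, where it was at least 3.81-fold higher (adjusted p = 3.57e-05). This bound sets the day 2 mean against the lowest signal that counted as detected on each control array, or the probe's own signal where that was higher. *Stat3*, a transcription factor that gp130 receptors activate by phosphorylation, had a change of only 0.31 ± 0.12 and was not called (adjusted p = 0.111). *Klf5* was the member that fell (-0.52 ± 0.14, adjusted p = 0.0175), and its call was lost without control 1 or 4 or day 2 replicate 2 or 3 (-0.50 to -0.44).

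**Figure D2:**
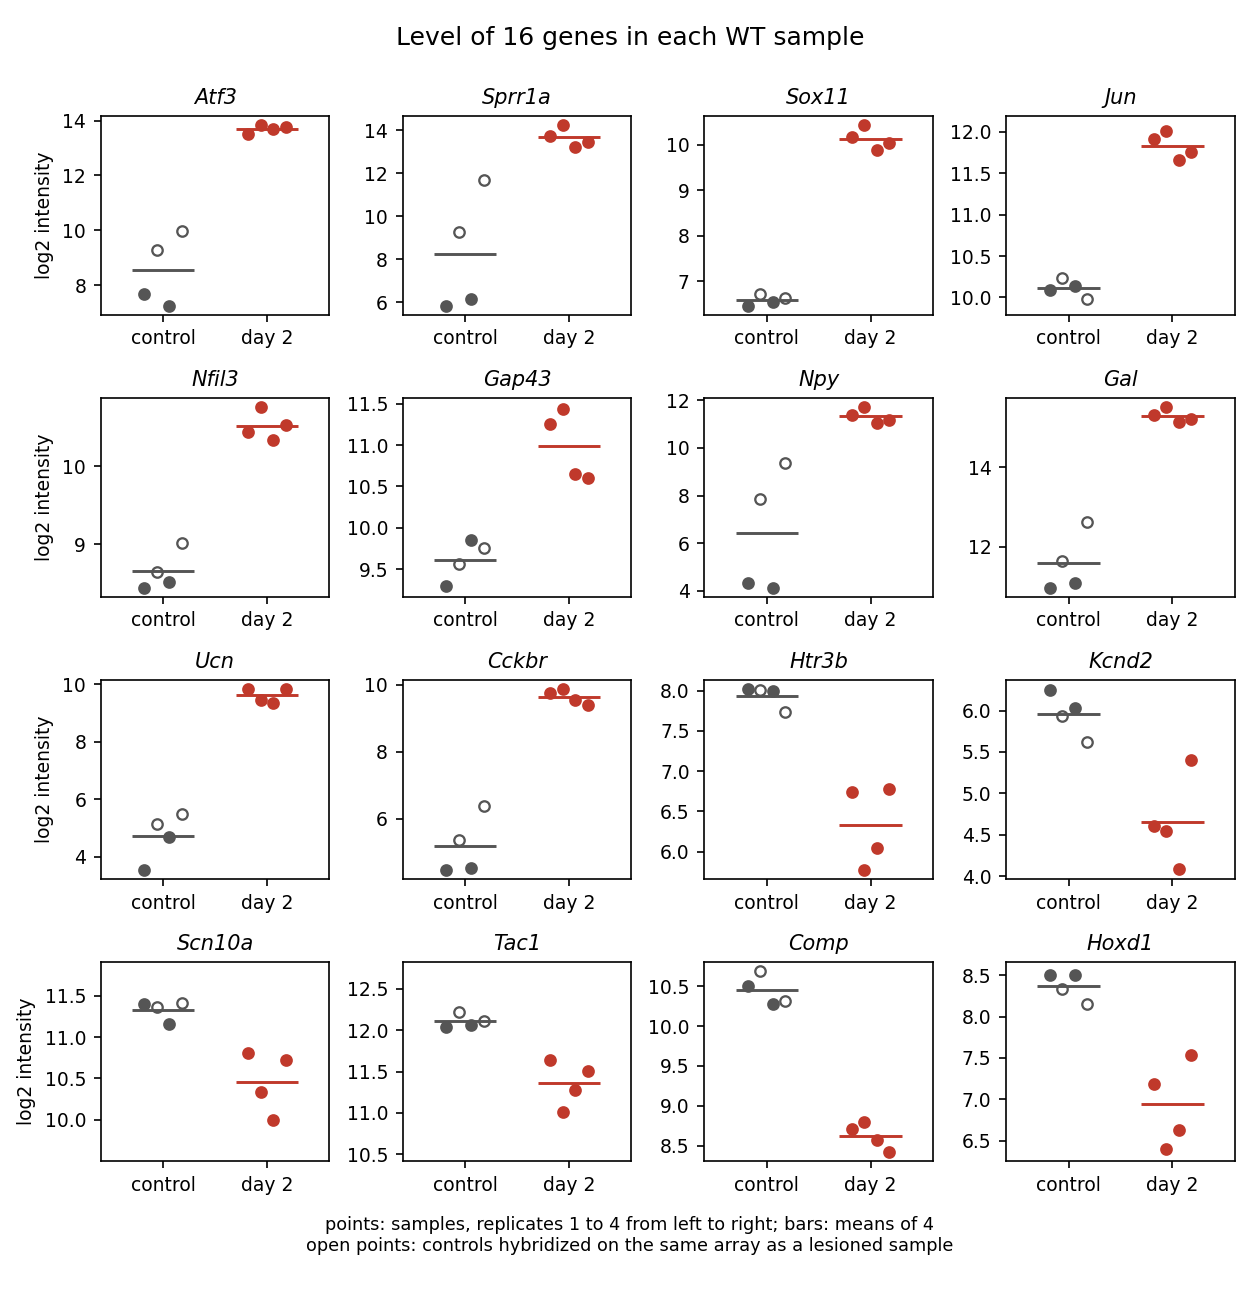
Log2 intensity of 16 genes in each of the 8 WT samples. Grey points are controls and red points day 2 samples, replicates 1 to 4 from left to right, and bars are means of 4. Open points mark controls 2 and 4, which share an array with a lesioned sample. In Sprr1a, Npy and Atf3 these 2 controls lie above the other 2.

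In many of the strongest risers the controls differed among themselves. On these arrays each channel held another sample, and control 2 shared its array with day 2 replicate 4, control 4 with a day 5 sample, whereas controls 1 and 3 shared theirs with *Nfil3* KO controls. *Sprr1a*, a cornified envelope protein that is made by regenerating axons, had levels of 5.83, 9.28, 6.12 and 11.68 in controls 1 to 4. Its day 2 levels were 13.75, 14.24, 13.21 and 13.48. The groups did not overlap, and the change was 5.44 ± 1.11 (adjusted p = 0.00284), which was not called in the fit of the 8 WT samples alone (adjusted p = 0.057). Without controls 2 and 4 it was 7.70. Among the 17 genes that rose by 16-fold or more, 12 had controls 2 and 4 both above controls 1 and 3 (70.6%), against 18.8% of the 468 genes that rose by 2-fold or more by the brightest probe and 11.7% of all genes. Without those 2 controls the change of *Atf3* was 6.23, that of *Npy* 7.09, that of *Gal* 4.28 and that of *Cckbr* 5.14, each larger than in the full comparison. In these genes controls 2 and 4 are the higher 2, so leaving them out must enlarge the change and adds nothing to the count above. The part of the array partner in these levels was not tested.

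Most of the listed axon growth genes rose. Of 36 axon growth and regeneration-associated genes, 23 rose (63.9%), 0 fell and 13 were not called, with a median change of 0.90. *Flrt3*, a transmembrane protein that promotes neurite outgrowth, had control levels of 8.29, 8.45, 8.58 and 8.68 and day 2 levels of 11.88, 12.21, 11.93 and 12.20. The groups lay far apart, and the rise was 3.56 ± 0.15 (adjusted p = 1.31e-11). *Tubb6*, a beta-tubulin, rose by 3.1 ± 0.19, although another *Tubb6* probe was called lower. *Sema6a* (3.0), an axon guidance protein, *Stmn4* (2.89), a regulator of microtubules, *Plaur* (2.68), the urokinase receptor, *Tnfrsf12a* (2.45), the TWEAK receptor, and *Itga7* (2.10), a laminin-binding integrin subunit, followed.

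*Gap43*, the growth cone protein, rose less. Its control levels were 9.29, 9.56, 9.85 and 9.76, and its day 2 levels were 11.26, 11.44, 10.65 and 10.60. The Cy3-labelled day 2 replicates 1 and 2 lay above the Cy5-labelled replicates 3 and 4, and the change of 1.37 ± 0.18 (adjusted p = 3.81e-05) was 1.92 within Cy3 and 0.82 within Cy5. *Arg1*, arginase 1, was detected in 1 of 4 controls. Its rise of 0.90 ± 0.26 (adjusted p = 0.0325) was not called in 13 of 27 other settings, among them each of controls 1, 3 and 4 and day 2 replicates 1, 2 and 4 left out (0.75 to 0.95). The stathmin gene *Stmn2* (0.31) was not called.

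Neuropeptides that injured neurons make were among the largest rises. *Npy*, neuropeptide Y, had control levels of 4.34, 7.85, 4.13 and 9.35 and day 2 levels of 11.40, 11.71, 11.03 and 11.16. It was detected in 2 of 4 controls, and the change was 4.91 ± 0.96 (adjusted p = 0.00194), also lost in the fit of the 8 samples alone (adjusted p = 0.0616). *Gal*, galanin, was detected in all samples and rose by 3.73 ± 0.30 (adjusted p = 4.57e-08), from 10.96, 11.63, 11.09 and 12.63 to 15.33, 15.52, 15.15 and 15.23. *Grp*, gastrin-releasing peptide, was detected in no control and in all 4 lesioned samples, where it was at least 13.7-fold higher (adjusted p = 8.49e-07).

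Of 8 such peptides on the array, 6 rose and 2 were not called, and the median change was 2.68. *Nts*, neurotensin, rose by 3.20 ± 0.19, *Adcyap1*, which encodes PACAP, by 2.16 ± 0.11 and *Bdnf* by 1.04 ± 0.13. *Cck* had a change of 0.23. *Vip*, another peptide of injured DRG neurons, was detected in none of the 8 samples. Among their receptors, *Cckbr*, the cholecystokinin B receptor, had control levels of 4.47, 5.37, 4.52 and 6.36 and day 2 levels of 9.76, 9.86, 9.54 and 9.39, a rise of 4.46 ± 0.42 (adjusted p = 4.08e-07).

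In the list of peptides of intact nociceptors and of secretory granules, more genes fell than rose. *Ucn*, urocortin, a peptide of the corticotropin-releasing factor family, had control levels of 3.55, 5.14, 4.68 and 5.49 and day 2 levels of 9.83, 9.48, 9.35 and 9.83. It was detected in 2 of 4 controls and rose by 4.91 ± 0.34 (adjusted p = 5.41e-09). Of the 18 genes of that list, 2 rose (*Ucn* and *Pcsk1*, a prohormone convertase), 5 fell and 11 were not called, with a median of -0.33. Those that fell were *Nmb*, neuromedin B (-0.80 ± 0.18), *Tac1*, the substance P precursor (-0.75 ± 0.21), *Calcb*, which encodes beta-CGRP (-0.72 ± 0.21), and the granins *Chga* (-0.68) and *Chgb* (-0.58). *Tac1* levels were 12.03, 12.22, 12.07 and 12.11 in the controls and 11.64, 11.02, 11.27 and 11.51 at day 2. The groups of *Tac1* did not overlap, but its call was lost without control 2, 3 or 4 or day 2 replicate 2 or 3 (-0.76 to -0.63). That of *Calcb* was lost without control 1, 3 or 4 or day 2 replicate 2, 3 or 4 (-0.75 to -0.57). The number of members that fell was 3 without control 3 or 4 or day 2 replicate 2 or 3, 8 without day 2 replicate 1 and 2 in the fit of the 8 samples. *Calca*, which encodes alpha-CGRP, had a change of -0.17 ± 0.13 and was not called (adjusted p = 0.514).

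Other genes at the top of the comparison belong to no list used here. *Slc6a4*, the serotonin transporter (4.56 ± 0.24), and *Gpr151*, an orphan receptor (4.52 ± 0.22), were detected in 1 of 4 controls and in all lesioned samples. *Tmem88b* rose by 4.49 ± 0.22 and *Wfdc3*, a whey acidic protein family member, by 4.21 ± 0.24. *Cd207*, which encodes the lectin langerin, had control levels of 3.65, 3.96, 3.71 and 4.26 and day 2 levels of 8.09, 8.45, 8.16 and 8.03. It was detected in no control, and day 2 levels were at least 18.7-fold higher (adjusted p = 2.61e-11), the largest bound among genes detected in no control. *Lce1g*, a late cornified envelope gene, was at least 9.66-fold higher and *Fgf3* at least 9.11-fold. The same rule named *Speer6-ps1* (3.96 ± 0.64).

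Low detection limits what can be said of many risers. Of the 468 genes that rose by 2-fold or more by the brightest probe, 289 (61.8%) were detected in all 4 controls, 89 in 1 to 3 of them and 90 in none. Among those 90, 54 were detected in all 4 lesioned samples, with bounds from 1.53-fold to 18.7-fold, and 15 were detected in no sample. Of the 210 genes that fell by 2-fold or more, 144 (68.6%) were detected in all 4 lesioned samples and 30 in no sample of either group.

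Promoters of the risers were searched for the sites of AP-1, CREB and NFIL3, the factors whose genes or partners rose above, and sequences are shown for 5 risers with a match. The letters searched on both strands were TGANTCA for AP-1, TGACGTCA for the cAMP response element (CRE) and TTANGTAA for NFIL3. N stands for any base, so a match can differ from the sequence that a factor prefers. The CRE letters do not contain the AP-1 letters. The sequences are RefSeq promoters of build GRCm38.p6, from 250 bases before to 50 after a gene's start, and 299 of the 468 risers of 2-fold or more matched an entry by symbol. The AP-1 letters were present in 43 of these 299 (14.4%), in 2 of 121 fallers of 2-fold or more (1.65%) and in 7.81% of all 32851 promoters of the table. Of the 14183 genes on the array with a promoter in the table, 7.90% held them. The CRE letters were in 3.01% of the risers, 4.13% of the fallers, 2.82% of these array genes and 1.79% of all promoters. The NFIL3 letters were in 1.34%, 2.48%, 2.38% and 2.32%. Capitals mark the matches, and positions count from the start of the gene. *Sprr1a* (chr3:92485832-92486131, minus strand) has AP-1 letters at -146 and -116 and NFIL3 letters at 28. The latter read TTAGGTAA and lie after the start of the gene. *Ucn* (chr5:31138846-31139145, minus strand) has CRE letters at -44. *Cd207* (chr6:83677808-83678107, minus strand), *Nts* (chr10:102490369-102490668, minus strand) and *Plaur* (chr7:24462233-24462532, plus strand) have AP-1 letters at -7, -207 and -69.
Sprr1a: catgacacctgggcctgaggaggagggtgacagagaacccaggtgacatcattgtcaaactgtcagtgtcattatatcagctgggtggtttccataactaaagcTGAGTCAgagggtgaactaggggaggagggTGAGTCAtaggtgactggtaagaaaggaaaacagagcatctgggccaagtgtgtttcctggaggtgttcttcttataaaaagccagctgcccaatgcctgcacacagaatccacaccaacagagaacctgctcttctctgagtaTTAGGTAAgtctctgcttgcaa
Ucn: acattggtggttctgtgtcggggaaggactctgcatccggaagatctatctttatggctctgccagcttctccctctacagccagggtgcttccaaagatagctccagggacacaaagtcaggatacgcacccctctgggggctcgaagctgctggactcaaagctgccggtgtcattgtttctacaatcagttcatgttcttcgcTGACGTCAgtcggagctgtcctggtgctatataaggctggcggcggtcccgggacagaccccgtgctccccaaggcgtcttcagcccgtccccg
Cd207: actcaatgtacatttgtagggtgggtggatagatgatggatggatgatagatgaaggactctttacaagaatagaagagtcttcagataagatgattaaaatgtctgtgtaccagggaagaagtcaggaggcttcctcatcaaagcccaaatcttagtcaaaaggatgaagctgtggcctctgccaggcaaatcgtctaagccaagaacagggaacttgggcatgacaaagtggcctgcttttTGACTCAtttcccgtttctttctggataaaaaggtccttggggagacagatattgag
Nts: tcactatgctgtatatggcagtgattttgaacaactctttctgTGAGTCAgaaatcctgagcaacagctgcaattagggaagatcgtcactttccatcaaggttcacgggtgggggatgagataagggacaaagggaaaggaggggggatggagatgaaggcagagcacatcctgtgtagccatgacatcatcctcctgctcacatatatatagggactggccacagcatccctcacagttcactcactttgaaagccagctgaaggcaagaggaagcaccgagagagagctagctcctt
Plaur: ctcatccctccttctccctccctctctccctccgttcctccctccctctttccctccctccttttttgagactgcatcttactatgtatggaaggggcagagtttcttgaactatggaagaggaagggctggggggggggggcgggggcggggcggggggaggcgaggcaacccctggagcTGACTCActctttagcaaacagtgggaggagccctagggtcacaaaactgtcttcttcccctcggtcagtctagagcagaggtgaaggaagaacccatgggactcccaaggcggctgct
No such letters were found in these windows of *Atf3*, *Gal*, *Npy*, *Sox11*, *Flrt3*, *Timp1*, *Gadd45a*, *Cckbr* or *Slc6a4*. A match is a string of letters, and binding was not measured.

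Channel genes of sensory neurons fell more often than they rose. Of 44 potassium and HCN channel subunits, 18 fell, 2 rose and 24 were not called, with a median change of -0.56. *Kcnd2*, which encodes the A-type channel Kv4.2, fell by 1.30 (SE 0.32, adjusted p = 0.0128), from 6.24, 5.93, 6.03 and 5.62 in the controls to 4.60, 4.54, 4.09 and 5.40 at day 2. Day 2 replicate 4 lay closest to the controls, and the call was lost without day 2 replicate 3 (-1.1). The modulatory subunits *Kcns3* (-1.13 ± 0.18) and *Kcns1* (-1.13 ± 0.19), the small-conductance channel *Kcnn2* (-1.09) and the delayed rectifier *Kcnb2* (-0.96) fell too. *Kcnmb4*, a beta subunit of the BK channel (0.89 ± 0.11), and *Kcnk10*, the 2-pore channel TREK-2 (0.55 ± 0.17), rose. The call of *Kcnk10* was lost without control 3 or 4 or day 2 replicate 1, 2 or 3 (0.42 to 0.56), and that of *Kcnb2* without any 1 of the controls or day 2 replicate 2 or 3 (-1.03 to -0.85) and with the slide or replicate block. In all 10 members fell without day 2 replicate 2 or 3, and 9 in the fit of the 8 samples.

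Of 13 voltage-gated sodium channel subunits, 4 fell, 0 rose and 9 were not called, with a median of -0.59. *Scn10a*, which encodes the nociceptor channel Nav1.8, had control levels of 11.40, 11.36, 11.15 and 11.41 and day 2 levels of 10.80, 10.33, 9.99 and 10.72. Replicates 2 and 3 were the lowest, and the fall was 0.87 on the log2 scale (SE 0.22, adjusted p = 0.0119). It was not called without day 2 replicate 3, at -0.71. *Scn11a*, which encodes Nav1.9 (-0.96 ± 0.27), *Scn2b* (-0.86 ± 0.16) and *Scn8a* (-0.85) fell as well, and *Scn9a*, which encodes Nav1.7, had a change of -0.34 (adjusted p = 0.49). The call of *Scn11a* was also lost with day 2 replicate 2 or 3, or control 3 or 4, left out (-0.97 to -0.73). In all 2 members fell without day 2 replicate 3.

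Among 22 calcium channel subunits, *Cacna2d1* was the member that rose, by 1.50 ± 0.13 (adjusted p = 8.75e-08). It encodes alpha2delta-1, the binding site of gabapentin, and its levels went from 11.13, 11.23, 10.97 and 11.15 to 12.77, 12.84, 12.34 and 12.52. The gamma subunit genes *Cacng2* (-0.70) and *Cacng5* (-0.67), whose proteins accompany AMPA receptors, and *Cacna2d3* (-0.48) fell, and 18 were not called. In the fit of the 8 samples 1 fell.

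Of 28 sensory transduction channels, 8 fell, 0 rose and 20 were not called. *Htr3b*, a serotonin-gated channel subunit, fell most. Its control levels were 8.02, 8.01, 7.99 and 7.74 and its day 2 levels 6.74, 5.78, 6.05 and 6.78, with a change of -1.60 ± 0.34 (adjusted p = 0.00354). *Trpc6* (-1.05), *Trpm8*, the cold receptor (-1.02), *Accn2*, an acid-sensing channel (-1.0), and *Trpa1*, the irritant receptor (-0.70), fell. The call of *Trpc6* was lost without control 2 or 4 or day 2 replicate 2 or 3 (-1.02 to -0.88), and that of *Trpa1* without any 1 of the controls or day 2 replicate 2 or 3 (-0.74 to -0.57). In all 5 members fell without day 2 replicate 2 or 3, and 3 in the fit of the 8 samples. *P2rx3*, the ATP receptor of nociceptors, had a change of 0.33 and was not called (adjusted p = 0.536).

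Of 33 receptors for opioids, cannabinoids, GABA and neuropeptides, 7 fell, 2 rose (*Cckbr* and *Gabra5*, a GABA-A subunit) and 24 were not called. The receptors for somatostatin *Sstr2* (-1.31), noradrenaline *Adra2c* (-1.25), nociceptin *Oprl1* (-1.18) and galanin *Galr1* (-1.10), all inhibitory, fell, as did the GABA-A subunit *Gabrb2* (-1.03). The opioid receptor genes *Oprk1* (-1.23, adjusted p = 0.0986) and *Oprm1* (-0.53, adjusted p = 0.264) were not called. *Galr1* fell while its ligand's gene *Gal* rose, and the call of *Galr1* was lost without control 2 or day 2 replicate 2 or 3 (-0.99 to -0.94).

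Factors that define types of sensory neurons, and genes of the synapse, also fell more often than they rose. Of 21 identity transcription factors, 8 fell, 1 rose and 12 were not called, with a median of -0.46. *Hoxd1*, a homeobox gene of peptidergic nociceptors, had control levels of 8.50, 8.33, 8.51 and 8.15 and day 2 levels of 7.18, 6.40, 6.63 and 7.53, a fall of 1.43 on the log2 scale (SE 0.29, adjusted p = 0.0029). *Etv1* (-1.09), an ETS factor of proprioceptors, *Pou4f3* (-1.07), *Runx3* (-0.72) and *Isl1* (-0.63) fell, and *Klf7* rose by 0.34 ± 0.09. The call of *Runx3* was lost without control 1 or 2 or day 2 replicate 2 (-0.69 to -0.62), and that of *Klf7* without control 1, 2 or 3 or day 2 replicate 1 or 2 (0.27 to 0.34). In the fit of the 8 samples 4 members fell. Of 31 synaptic vesicle and exocytosis genes, 11 fell, 1 rose (*Syt4*, 0.83 ± 0.11) and 19 were not called. *Syt7* (-1.0), a calcium sensor, *Cplx2* (-0.80), complexin 2, and *Synpr* (-0.74), synaptoporin, fell most. The call of *Synpr* was lost in 18 of 27 other settings, the slide block, the replicate block and each of the 8 samples but day 2 replicate 4 left out among them (-0.82 to -0.60), and that of *Syt7* in 13, among them without control 1, 3 or 4 or day 2 replicate 2 or 3 (-1.0 to -0.81). The number of synaptic genes that fell was 7 without control 1 or day 2 replicate 3, 5 without control 2 or 3, 4 without day 2 replicate 2 and 3 in the fit of the 8 samples. The neurofilament genes *Nefh* (-0.57 ± 0.14) and *Nefm* (-0.54 ± 0.14) fell, while *Nefl* had a change of -0.44 (adjusted p = 0.203). Other intermediate filament genes rose, among them *Gfap* (1.11), *Lmnb1* (0.84) and *Vim* (0.68). *Gfap* was not called in 14 of 27 other settings, among them without control 2 or 3 or any 1 of the day 2 samples (0.82 to 1.18), and its change ran from 0.27 with normexp to 2.04 with processed signals. *Nefm* was not called without control 1 or 3 or day 2 replicate 2 (-0.50 to -0.47).

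These falls went with a lower mean level of neuron markers. The mean over 10 neuron markers was 13.62 to 13.83 in the controls and 13.27 to 13.58 at day 2, with no overlap, and 3 of the 10 fell (*Rbfox3*, *Isl1* and *Snap25*), 0 rose and 7 were not called. The markers *Isl1*, *Pou4f1*, *Snap25*, *Nefl* and *Prph* are also members of the lists above. The marker mean therefore partly repeats the same falls and is no separate measure of neuron content. Day 2 replicates 2 and 3, in which *Scn10a*, *Htr3b*, *Tac1* and *Hoxd1* were lowest, had neuron marker means of 13.38 and 13.27 and Schwann cell marker means of 12.08 and 12.71. The other 2 day 2 samples had neuron marker means of 13.58 and 13.52 and Schwann cell marker means of 11.57 and 11.50, and Schwann cell markers had 11.27 to 11.54 in the controls. Of the 10 Schwann cell markers limma called 0, and 5 were higher at an unadjusted p under 0.05. The part of cell makeup in the falls was not tested. In whole ganglia, fewer neurons and less RNA of a gene per neuron cannot be told apart.

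The 15 largest falls named here are those of genes with a symbol, detected in all 4 controls, whose groups did not overlap. By the brightest probe, 13 called genes fell by 4-fold or more, and 0 of them were detected in all 8 samples. *Comp*, cartilage oligomeric matrix protein, had control levels of 10.51, 10.69, 10.28 and 10.32 and day 2 levels of 8.71, 8.80, 8.58 and 8.42. Its fall of 1.82 on the log2 scale (SE 0.25, adjusted p = 5.76e-05) was the largest of these 15. *Rem2* (-1.57), a GTPase that regulates calcium channels, *Nkx6-2* (-1.54), a homeobox gene, *Rassf6* (-1.47) and *Ankrd34c* (-1.45) came after *Htr3b*. *Pnpla3* (-1.43), a lipase, *Serpina11* (-1.42), *Myadml2* (-1.41), *Fndc5* (-1.39), the precursor of irisin, *L3mbtl1* (-1.38), *Rasgrp1* (-1.36), a Ras activator, *Wipf3* (-1.34) and *Amigo3* (-1.34) completed the 15 largest falls.

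**Figure D3:**
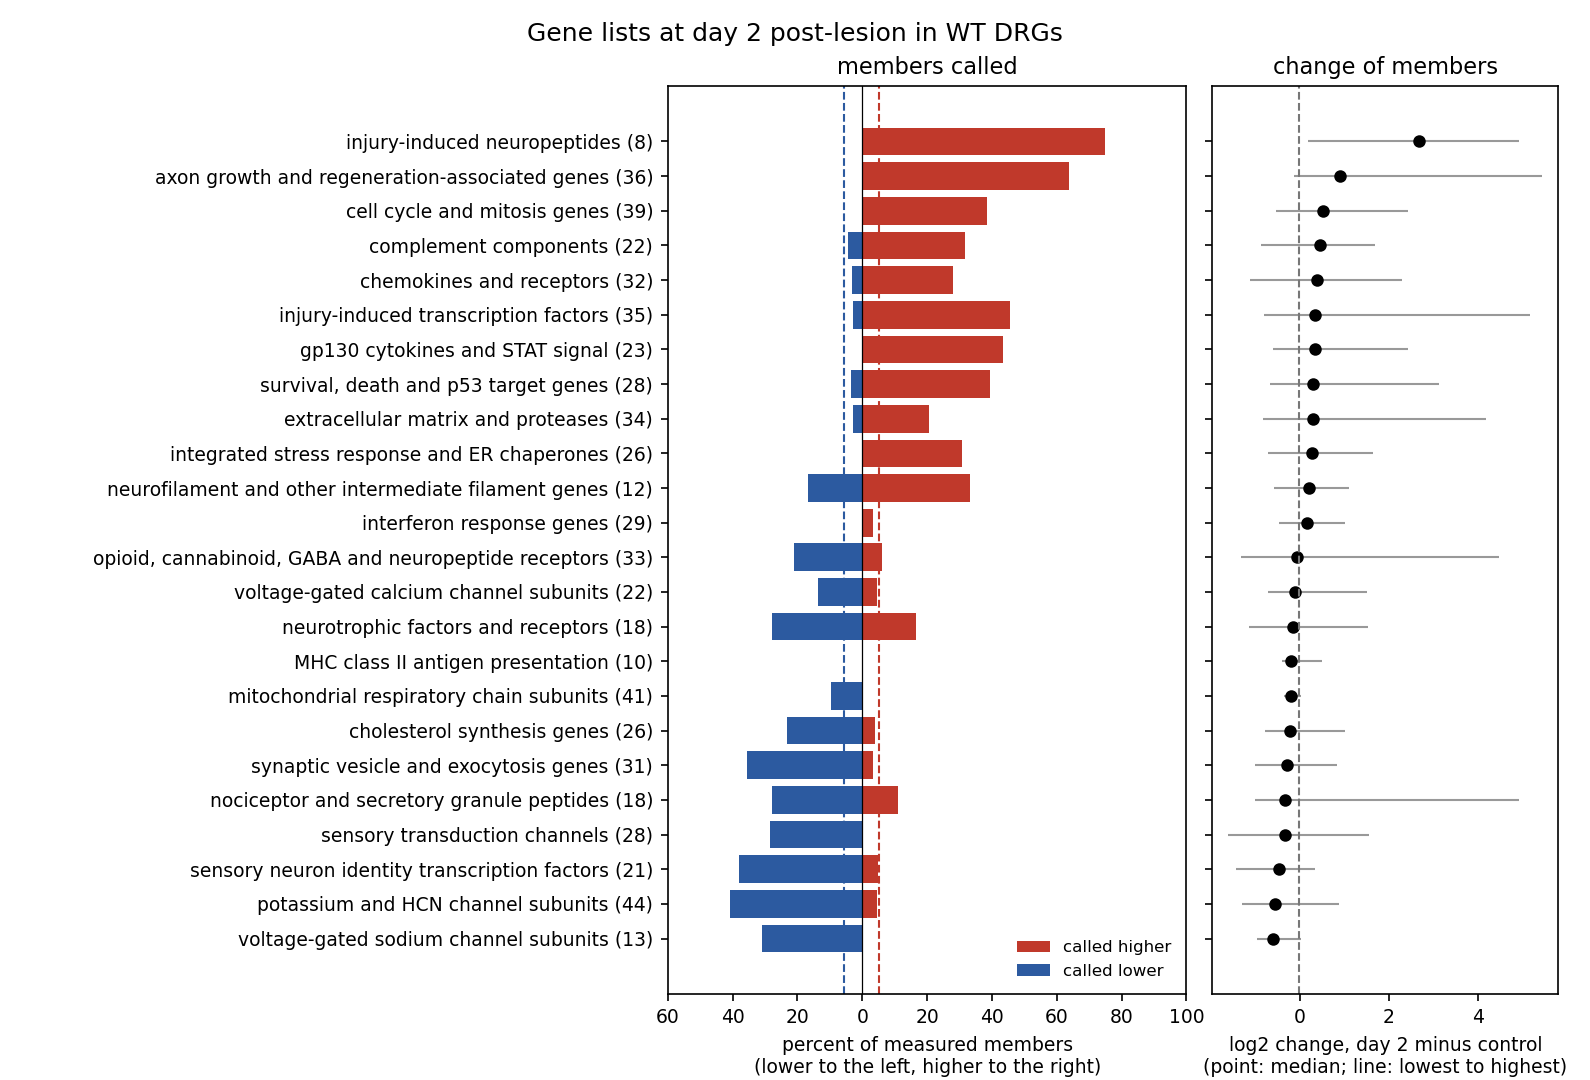
Gene lists at day 2 in WT DRGs, ordered by median change. The number of members on the array is in parentheses. Left, percent of members called higher (red, to the right) and lower (blue, to the left), with dashed lines at the shares over all genes (5.23% and 5.77%). Right, median log2 change (points) and lowest to highest member (lines), with a dashed line at the median of all genes (-0.02). Injury-induced neuropeptides and axon growth genes are at the top, and potassium and sodium channel subunits at the bottom. The lists were chosen with earlier results of these data known.

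Receptors for neurotrophic factors split. *Gfra1*, the GDNF coreceptor, rose by 1.53 ± 0.13, from between 9.05 and 9.26 to between 10.58 and 10.82, and *Gfra3*, the artemin coreceptor, by 1.00 ± 0.12. *Gfra2*, the neurturin coreceptor, fell by 0.88 (SE 0.26). Its call was lost with the replicate block and without any 1 of the controls or day 2 replicate 2 or 3 (-0.93 to -0.67). The ligand gene *Ntf3* was detected in 3 of 4 controls and in no day 2 sample, where it was at least 2.2-fold lower (adjusted p = 0.0105). In all 3 members of 18 rose, 5 fell and 10 were not called. Those that fell were 2 without control 2, 3 without control 3 or day 2 replicate 2 or 3 and 1 in the fit of the 8 samples. *Ret*, the receptor that GFRA proteins share, had a change of 0.40 (adjusted p = 0.131).

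Some cytokine and feedback genes rose. *Il6*, interleukin 6, had control levels of 5.01, 4.67, 4.04 and 4.13 and day 2 levels of 6.65, 6.92, 7.22 and 6.71. It was detected in 2 of 4 controls and rose by 2.42 ± 0.21 (adjusted p = 1.19e-07). Feedback inhibitors of JAK and STAT signalling rose too, namely *Socs3* (1.41 ± 0.18), *Cish* (1.00 ± 0.16), *Socs2* (0.90) and *Socs1* (0.74). In all 10 of 23 gp130 and STAT genes rose and 0 fell. *Csf1*, the macrophage growth factor, which no list held and which was chosen after its value was seen, rose by 2.68 ± 0.17 (adjusted p = 1.2e-09), from 8.54 ± 0.25 in the controls to 11.2 ± 0.24 at day 2 (mean and SD, n = 4).

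A minority of chemokine and complement genes rose. *Ccl8* (2.30 ± 0.33), *Ccl7* (1.62 ± 0.28), *Ccl12* (1.25), *Ccl9* (1.23) and *Ccl2* (1.08), ligands that attract monocytes, were among 9 of 32 chemokine genes that rose, and *Cx3cl1*, the neuronal fractalkine gene, was the member that fell (-0.44 ± 0.12), a call lost without control 2, 3 or 4 or day 2 replicate 1, 2 or 4 (-0.44 to -0.35). Of 22 complement genes 7 rose, with *C3* first (1.68 ± 0.34), and *Cd55*, an inhibitor of complement, fell (-0.87 ± 0.19). *C3* levels were 8.65, 8.88, 8.50 and 8.96 in the controls and 9.63, 10.18, 11.75 and 10.13 at day 2, so replicate 3 stood above the other 3. In the fit of the 8 samples *C3* was not called (adjusted p = 0.076), and 4 complement genes rose. The mean of 14 macrophage markers was 8.06 to 8.71 in the controls and 8.80 to 9.39 at day 2, with no overlap. Of these markers 5 rose (*Mrc1*, *Cd68*, *Aif1*, *Fcer1g* and *Tyrobp*) and 0 fell, and their part in the other changes was not tested. The call of *Aif1* was lost without control 1, 2 or 3 or day 2 replicate 2 or 3 (0.73 to 0.86), that of *Tyrobp* without control 1 or 2 or day 2 replicate 4 (0.67 to 0.78) and that of *Fcer1g* without day 2 replicate 3 (0.73). Satellite glia markers were mixed, with 3 higher, among them *Gfap* (1.11) and *Glul* (0.84), *Fabp7* (-1.01) lower and 6 not called. Markers of lymphocytes, neutrophils, endothelial cells, fibroblasts, spinal cord and red blood cells had 0 calls by limma, and at an unadjusted p under 0.05 there were 3, 0, 1, 0, 0 and 2 among 14, 7, 8, 6, 6 and 3 markers. The neutrophil marker mean was 10.96 and 10.63 in day 2 replicates 3 and 4, against 8.66 to 9.66 in the other 6 samples. Of 10 MHC class II genes, limma called 0, and 0 had an unadjusted p under 0.05. Of 29 interferon response genes, *Mx2* (0.73 ± 0.16) was the one called.

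Some genes of growth arrest and of cell division rose. *Gadd45a*, a DNA damage and stress gene, had control levels of 9.36, 9.48, 9.25 and 9.60 and day 2 levels of 12.57, 12.99, 12.36 and 12.32, a rise of 3.13 ± 0.18 (adjusted p = 3.04e-10). *Gadd45g* (2.10 ± 0.14), *Cdkn1a*, the cell cycle inhibitor p21 (2.05 ± 0.19), *Pmaip1* (1.96) and *Casp6* (1.76) rose, and *Bcl2*, which inhibits apoptosis, fell (-0.65 ± 0.15). In all 11 of 28 survival, death and p53 target genes rose and 1 fell. Of 39 cell cycle genes 15 rose and 0 fell, with *Prc1* (2.42 ± 0.15), *Top2a* (1.29 ± 0.24) and *Mki67* (1.25 ± 0.33) first. *Mki67* levels were 7.90 and 7.85 in the Cy3 day 2 samples and 8.78 and 8.61 in the Cy5 ones, against 6.81 to 7.25 in the controls. *Mki67* was not called without control 2 or day 2 replicate 3 or 4 (1.09 to 1.18). *Top2a* differed by 0.44 within Cy3 and 2.14 within Cy5, by 0.35 with its probes averaged, where it was not called, and it was not called in the fit of the 8 samples (adjusted p = 0.0909). *Pcna* (0.35) was not called.

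The extracellular matrix list held some of the strongest risers and many genes that were not called. *Timp1*, an inhibitor of metalloproteinases, rose by 3.19 ± 0.20, from 8.08, 8.07, 8.37 and 8.80 to 11.48, 11.84, 11.56 and 11.21. *Mmp16* (3.09 ± 0.15) and *Adam8* (3.01), membrane-bound proteases, rose as well. Of 34 members 7 rose, 1 fell (*Timp2*, -0.45 ± 0.12) and 26 were not called. The call of *Timp2* was lost without control 1 or 2 or day 2 replicate 2 (-0.43 to -0.42). Of 26 genes of the integrated stress response and ER chaperones 8 rose and 0 fell. They were led by targets of ATF4, *Chac1* (1.65 ± 0.23), *Trib3* (0.92 ± 0.20) and *Slc7a5* (0.64 ± 0.20), while the chaperone gene *Hspa5* (0.23) was not called. The number that rose was 5 without control 3 or day 2 replicate 1 or 2 and 2 in the fit of the 8 samples, where *Trib3* was not called (adjusted p = 0.062). *Slc7a5* was not called without any 1 of the controls or day 2 replicate 1 or 2 (0.41 to 0.69).

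More of the listed metabolic genes fell than rose. Of 26 cholesterol synthesis genes 6 fell and 1 rose (*Hsd17b7*, 1.02 ± 0.13), and *Stard4* (-0.74) and *Dhcr7* (-0.72) were among those that fell. Those that fell were 3 without control 3 or day 2 replicate 2 or 3. At an unadjusted p under 0.05 by limma, 10 of the 26 were lower and 2 higher. Of 41 subunits of the mitochondrial respiratory chain 4 fell (*Ndufs3*, *Ndufb5*, *Atp5o* and *Atp5b*, by 0.27 to 0.35) and 0 rose, with a median of -0.20 and a highest value of 0.03. There were 2 such calls without control 1 or day 2 replicate 2 or 3 and 0 in the fit of the 8 samples. At an unadjusted p under 0.05 by limma, 16 of the 41 subunits were lower and 0 higher. Of all genes, 22.7% differed at that level in either direction.

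The same comparison in *Nfil3* KO mice sets other samples against each other, but it is not independent of the WT one. Both come from a single fit and normalization, and WT controls 1 and 3 and WT day 2 replicates 2 and 3 shared an array with a KO sample of the same condition (correlation within arrays 0.266). In the KO 4494 probes (10.9%) were called, against 4113 (9.99%) in WT. Of the 4113 probes called in WT, 98.8% differed in the same direction in *Nfil3* KO mice, 70.9% were called in that direction and 0 were called in the opposite one. Of the 622 probes that rose by 2-fold or more in WT, 98.6% had the same direction and 85.5% were called. Of the 260 that fell by as much, these shares were 90% and 60.4%. Of the probes not called in WT, 68.5% differed in the same direction. *Atf3* rose by 5.10 in the KO, *Sox11* by 3.43, *Gal* by 3.74, *Flrt3* by 3.46 and *Gadd45a* by 3.26, next to 5.14, 3.56, 3.73, 3.56 and 3.13 in WT. Some falls of neuronal genes were not past the threshold there. *Scn10a* had a change of -0.61 (adjusted p = 0.077) and *Tac1* of -0.63 (adjusted p = 0.06). A test of the difference between the genotypes called 0 probes by limma after adjustment, with 1216 genes (4.44%) at an unadjusted p under 0.05. In that test the brightest *Nfil3* probe had a difference of -1.87 (unadjusted p = 0.118). The dimmer one had -1.93 (unadjusted p = 0.0235), and neither was called. The test missed the deleted gene itself, so 0 calls do not show an equal response. The study reports a small set of genes regulated differently after the lesion in the KO, from time course and interaction analyses.

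**Figure D4:**
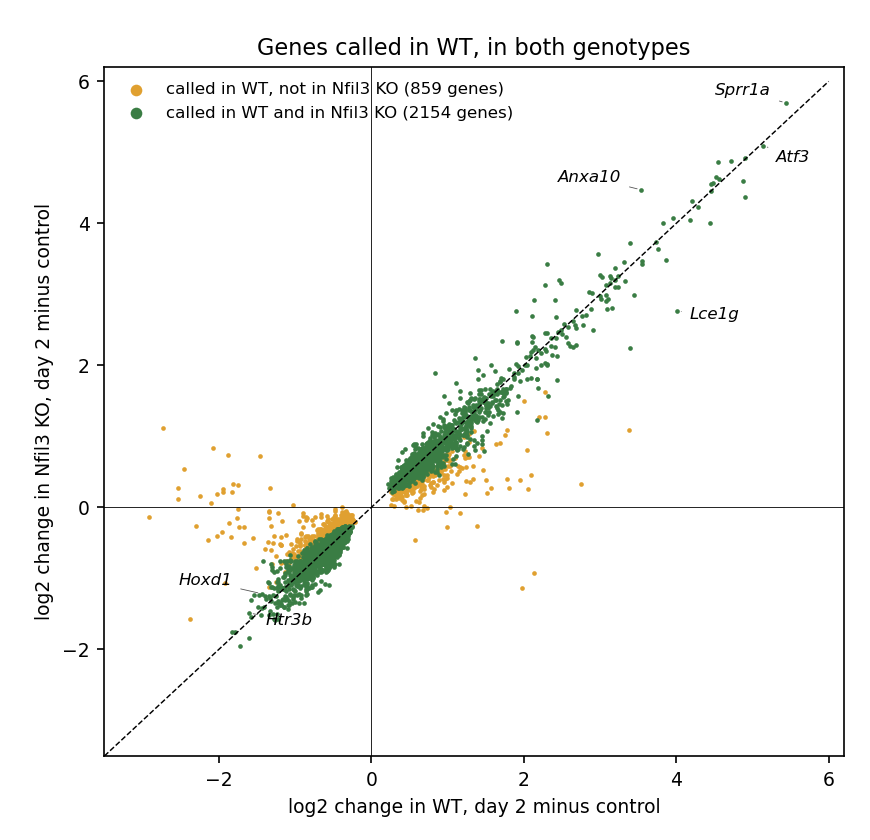
Change at day 2 in WT (x axis) and in Nfil3 KO mice (y axis), both as log2 day 2 minus control, for the 3013 genes called in WT by the brightest probe. Green points are the 2154 also called in Nfil3 KO mice and orange points the 859 not called there. The dashed line marks equal change. Most points lie along it, on the same side of 0 in both genotypes.

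The 4 WT samples at day 5 show which day 2 levels had changed by then. The same day 2 samples enter both comparisons, which favours a return toward control in genes picked at day 2. Day 5 and day 2 were compared directly, and 170 genes (0.620%) were higher and 55 (0.201%) lower at day 5. Of the genes called in both comparisons by the brightest probe that have a gene symbol, 45 rose at day 2 and were higher still at day 5, 23 rose and were lower at day 5, 11 fell and were higher at day 5, and 1 fell and was lower still. *Saa2*, a serum amyloid A gene of the acute phase, had levels of 6.26, 6.51, 5.96 and 6.08 in the controls, 9.84, 10.01, 10.19 and 9.81 at day 2 and 8.08, 7.47, 7.98 and 7.53 at day 5. Its day 2 level lay above both other groups, and it fell by 2.20 from day 2 to day 5 (adjusted p = 9.65e-05). *Saa3* (-2.20), *Saa1* (-1.81), *Mt2*, a metallothionein gene (-1.08), *Areg*, amphiregulin (-1.20), and *Uhrf1*, which maintains DNA methylation (-1.14), were lower at day 5 as well. At day 5 *Saa2* (1.57), *Saa3* (0.87), *Saa1* (0.77) and *Uhrf1* (0.66) were still called higher than in the controls. *Mt2* (0.57, adjusted p = 0.124) and *Areg* (0.32, adjusted p = 0.558) were not. These genes were chosen after their values were seen.

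Some genes that macrophages express rose further. *Trem2*, a lipid receptor of these cells, was 7.59 on average in the controls, 8.80 at day 2 and 10.07 at day 5, and the day 5 level was higher than that at day 2 (1.27, adjusted p = 0.000957). *C1qa* (1.33), *C1qb* (1.17), *Fcgr1* (1.14, adjusted p = 0.0496) and *Ccl8* (2.08) were also higher at day 5 than at day 2. The day 2 call of *C1qa* was lost without control 1, 2 or 3 or day 2 replicate 1, 2 or 3 (0.81 to 0.87). That of *Fcgr1* was lost without control 2 or 3 or day 2 replicate 3 (0.82 to 0.94). *Nts* was higher at day 5 by 1.25 (adjusted p = 0.00233), *Anxa10*, an annexin, by 2.01 (adjusted p = 0.000213) and *Reg1*, a regenerating islet-derived gene, by 1.73 (adjusted p = 0.0016). For *Atf3* (0.16), *Sox11* (0.09) and *Gadd45a* (-0.17) the difference between day 5 and day 2 was not called.

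**Figure D5:**
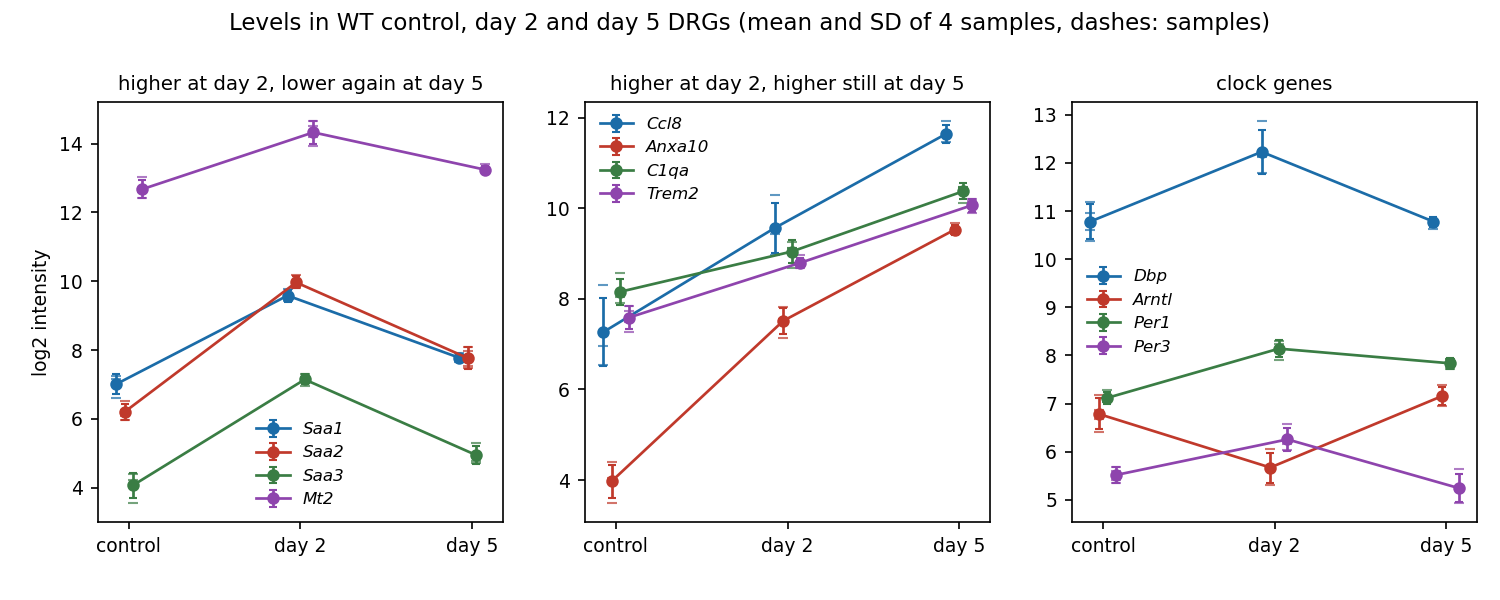
Levels of 12 genes in WT control, day 2 and day 5 DRGs. The y axis is log2 intensity, points and bars are means and SD of 4 samples, and dashes are samples. Left, genes that rose at day 2 and were lower at day 5 (Saa1, Saa2, Saa3, Mt2). Middle, genes that rose at day 2 and were higher still at day 5. Right, clock genes, of which Dbp and Arntl moved in opposite directions at day 2.

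Among clock genes, 4 rose and 1 fell at day 2. *Dbp*, a PAR bZIP output gene of the circadian clock whose DNA site NFIL3 shares, had control levels of 10.60, 10.95, 11.19 and 10.39 and day 2 levels of 12.12, 12.15, 12.87 and 11.79, a rise of 1.45 ± 0.29 (adjusted p = 0.00225). At day 5 it was back at 10.78 on average, next to 10.78 in the controls. *Arntl*, which encodes the clock activator BMAL1, fell by 1.11 (SE 0.17, adjusted p = 0.000159), and at day 5 it was higher than at day 2 by 1.48 (adjusted p = 0.000197). *Per1* (1.02 ± 0.18), *Bhlhe41* (0.95 ± 0.16) and *Per3* (0.74 ± 0.19) rose, and the other 14 of 19 clock genes were not called. *Per3* was detected in 3 of 4 controls, and its call was lost without day 2 replicate 3 (0.63). In *Nfil3* KO mice *Dbp* (0.84, adjusted p = 0.0689) and *Per3* (0.38, adjusted p = 0.221) were not called. There *Per1* (0.905) and *Bhlhe41* (1.24) rose and *Arntl* (-0.80) fell. This family was chosen after its values were seen. The hour of the day at which the tissue was taken is not stated, and its part in these values was not tested.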

How the data were processed

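Total RNA of L4 and L5 DRGs was labelled with Cy3 or Cy5 and hybridized to 12 Agilent 4x44K arrays of 3 slides, with 2 different samples per array. Replicates 1 and 2 of each group carry Cy3 and replicates 3 and 4 Cy5. Scans were read by the authors in Feature Extraction 10.7.3.1 of Agilent, and the deposited files hold spot intensities (mean and median foreground, median background, processed signal) and flags, per channel and without normalization between samples. Samples were grouped by title. One KO control has another day in a further label field and was taken as control by its title. The dye-swapped channels were used as single-colour intensities, as the study's methods state.

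From these, the Edwards background correction was applied to mean foreground and median background over all spots, control spots were dropped, and log2 values were quantile normalized over the 24 channels (R 4.3.3, limma 3.58.1, statmod 1.5.0, data.table version 1.17.8). Spots flagged as outliers were then left out (417 probe values missing), and spots of a probe were averaged. All 24 samples entered a linear model of group means (lmFit, eBayes). Probes were called at an adjusted p under 0.05 (Benjamini-Hochberg, 41174 probes). Genes are named as on the array, and near-identical copies may share probe signal. The number of arrays limits the precision.

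The members and gene lists were chosen with earlier results of these data known. Genes named are the 9 of the study's theme, the 15 largest rises and 15 largest falls among called genes with a symbol that were well above background in all 4 samples of the higher group and whose groups did not overlap, up to 3 rises and 3 falls per list, and genes chosen after their values were seen, which include all others. Some genes that this rule names are not reported here. The model was tested on simulated data. Alternatives covered background correction, normalization, foreground, outliers, dim probes, probe averaging, dye, slide, array and replicate blocks, variance trend, the samples fitted, array partners, within-dye values and each replicate left out. Array coordinates are on mm9, and only RefSeq coordinates on GRCm38.p6 are printed.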

Additional observations from a re-analysis of the deposited data

Results flagged for a closer look

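A single sample stood apart from the other 3 of its group (a gap beyond Dixon's critical value) in 21 of 456 groups of 4 examined. About 1 in 20 such groups is expected by chance, and 12 of the 21 were controls.

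Mean skeletal muscle markers were 7.86 in control 1 against 4.75 to 4.91 in the other controls, and *Pcna* was high there (10.77). In control 4, *Aif1* (9.76) was high and *Htr3b* (7.74), *Kcns1* (7.93), *Cacna2d3* (9.45) and *Nefm* (14.14) were low. In control 2, *Tmem88b* (5.29) and *P2rx3* (8.79) were high and *Gfap* (3.01) was low. In control 3, *Cplx2* (13.46) and *Ndufs3* (13.48) were high. Among day 2 samples, *Nkx6-2* was low (6.10) and *Oprl1* high (7.69) in replicate 1, *Nefm* low in replicate 2 (13.82), *Gfra3* (12.61), *Atp5b* (15.6), *Isl1* (8.91) and *Smad1* (12.74) low in replicate 3, and in replicate 4 *Socs3* was low (9.88) and *Runx3* high (5.89). In each of these genes except *P2rx3*, *Aif1* and *Pcna* the 4 day 2 samples still lay on 1 side of the 4 controls.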

How the results depend on the processing

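Genes called at 2-fold or more, 757 in the main analysis, were 337 without background correction and 294 with normexp. With only the 8 samples in the fit 1495 genes were called, 866 higher and 631 lower. Leaving out the 2 controls hybridized beside a lesioned sample, 1989 were called, 886 of them lower. Within Cy3 738 were called (506 higher, 232 lower) and within Cy5 282 (249 higher, 33 lower, 261 at 2-fold or more). In values chosen after seeing the data, 287 were called within slide 3 (248 higher, 39 lower, 287 at 2-fold or more) and 0 within slide 2 in each of these counts, where 1 control is left. Within a slide, dye and group cannot be told apart. By sign, all 1432 rises and 1581 falls kept their direction within each dye and slide, apart from 1 fall in slide 2, over the same samples.

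With 1 replicate left out, genes called ranged from 2395 to 3302 (higher 1285 to 1528, lower 1114 to 1828, at 2-fold or more 663 to 893), WT calls with the same direction in the KO from 98.09% to 98.87%, those also called there from 50.41% to 80.16%, and calls of the genotype difference from 0 to 1 (*Pbk* without WT control 1, *Itfg1* without KO day 2 replicate 3). *Vip*, detected in no WT sample, turned from 0.19 to -0.33 with the median foreground, -0.10 with loess and Aquantile and -0.062 within slide 3. *Cck* turned from 0.23 to -0.005 within Cy3 and -0.212 within slide 3. Of the 212 genes run one by one, no other changed direction. Of the 195 called among these chosen genes, 4 lost the call with the replicate block and 4 with the slide block.

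Control and day 2 samples of the same replicate number did not deviate from their group means together (correlations from -0.36 to -0.28). Among pairs of different numbers the highest correlation was 0.443, for control 2 and day 2 replicate 4, which shared an array. With the replicate block 3657 genes were called, 1727 higher and 1936 lower. Dim genes depend most on the background correction. The causes were not tested.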

Other observations

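Gene families outside the lists were examined after their values were seen. Of 38 Hox genes on the array, 10 fell at day 2 (among them *Hoxd1*, *Hoxb6*, *Hoxa10*, *Hoxa5*, *Hoxa7*, *Hoxb5*, *Hoxc6*, *Hoxb2* and *Hoxb9*), *Hoxa13* rose (0.69 ± 0.19, detected in 1 of 4 controls, and not called in 14 of 27 other settings, among them without control 1 or 4 or day 2 replicate 1, 3 or 4, at 0.61 to 0.66) and 27 were not called. *Hoxb6*, which patterns the trunk, had levels of 10.06, 10.08, 9.92 and 9.49 in the controls and 8.26, 8.55, 8.94 and 8.61 at day 2, without overlap, and fell by 1.29 on the log2 scale (SE 0.15, adjusted p = 5.4e-06). The groups of *Hoxb9* overlapped, and its call was lost without control 1, 2 or 3 or day 2 replicate 1, 3 or 4 (-0.535 to -0.468). In *Nfil3* KO mice 10 Hox genes fell, and 9 genes were called the same way in both genotypes, *Hoxb6* (-1.51) among them.

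Genes of epithelial barriers and of the acute phase were among the risers. *Csta*, a stefin A gene, rose from 6.07, 5.77, 5.93 and 5.77 to 9.20, 9.48, 8.99 and 9.42 (3.39 ± 0.17, adjusted p = 4.54e-11), and 4 of 5 stefin A genes rose. Of 12 late cornified envelope 1 genes 5 rose, *Lce1f* by at least 8.08-fold, of 4 serum amyloid A genes 3 rose, and of 13 small proline-rich genes 1 (*Sprr1a*). Over all genes 5.23% rose by the brightest probe, and 1 of 13 is near that share. The 5 late cornified envelope risers were each detected in 0 or 1 of 4 controls. The 2 members detected in all 8 samples, *Lce1l* (0.05) and *Lce1b* (0.004), were not called. Copies within these families are near-identical and may share probe signal. *Star*, the cholesterol carrier of steroid synthesis, rose by 3.87 ± 0.19, from between 5.56 and 6.16 to between 9.38 and 9.98. *Kif22*, a kinesin, rose by 3.31 ± 0.17, *Procr*, the protein C receptor, by 3.13 ± 0.18 and *Car3*, a carbonic anhydrase, by 2.67 ± 0.24.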
